A study of Mus musculus with 8 samples.

Results

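Klf2, Klf4 and Klf5 are 3 of the 21887 mouse protein-coding genes in the RefSeq gene table for mm10. Each locus was taken as the gene interval plus 100 kb on each side, and the peaks of acetylated lysine 27 of histone H3 (H3K27ac) that overlapped it were used. The windows held 89 of the 82792 union regions formed by merging the peaks of all 4 libraries: 38 at Klf2, 16 at Klf4 and 35 at Klf5. H3K27ac marks promoters and enhancers that are in use, and was mapped by ChIP-seq in E14tg2a, a mouse embryonic stem cell line of 129SV background. All cells, untreated ones included, stably expressed cRAF-ErT2, in which RAF is joined to a hormone-binding domain so that 4-hydroxytamoxifen (4OHT) switches on ERK MAP kinase signalling. Culture was in serum, LIF and 2 uM of the GSK3 inhibitor Chir99021, and for the 24 h before treatment the medium named holds serum, LIF and 250 nM PD173074, which blocks FGF receptors. The treated libraries came from clones a and b after 250 nM 4OHT for 2 h, and the untreated libraries from clones a and b without 4OHT; the labels name no vehicle control. Each group therefore had 2 libraries, 1 per clone, and all p-values rest on these 2 clones only. The limma tests also draw their variance estimate in part from all other loci or regions tested. The 4 input libraries were not analysed here.

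KLF2, KLF4 and KLF5 are zinc finger transcription factors that bind GC-rich and CACCC-type DNA. In mouse embryonic stem cells they act with overlapping roles in the network that keeps naive pluripotency. Klf4 is known as a target of LIF and STAT3 signalling, Klf2 as a gene that is high when ERK signalling is blocked, and Klf5 as a gene that can sustain self-renewal when the others are low. Active enhancers of such genes can lie far outside the gene body, so the flanks were included.

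The deposited lists held 59170 and 62764 peaks in the treated libraries of clones a and b and 61203 and 63276 in the untreated ones. The peaks covered 51.5 and 50.7 Mb in treated cells and 53.1 and 50.4 Mb in untreated cells. Without read counts the depth behind each peak is unknown, and a peak missing from a list may lie just under that list's threshold. In bulk chromatin, a mark on fewer cells and less of the mark per cell cannot be told apart. The loci of 8 of 8 embryonic stem cell markers (such as Pou5f1, Sox2 and Nanog) held peaks, with 285 and 253 kb in all in treated cells and 268 and 239 kb in untreated cells. Of all 21887 protein-coding loci, 20035 held a peak in at least 1 library, so holding peaks does not by itself mark a cell type. The windows of 6 primitive endoderm markers together held 5.25 and 12.8 kb in treated cells and 6.31 and 9.64 kb in untreated cells, and those of Gata6, Sox17 and Foxa2 were at or near 0 in every library, with at most 0.607 kb. Fibroblast marker windows, 6 in number, held 26.0 and 28.9 kb in treated cells and 23.1 and 26.0 kb in untreated cells. Trophoblast marker windows, 5 in number, held 37.9 and 32.9 kb in treated cells and 31.1 and 28.0 kb in untreated cells, and 1 of them, around Hand1, passed limma's test across loci (adjusted p = 0.0464), where 3.63% of all loci were called longer. Of the fibroblast markers, Twist1 alone was at 0 in both untreated libraries, with 1.66 and 2.12 kb in the treated ones. The fibroblast and trophoblast sums were thus higher in the treated library of each clone, as was the embryonic stem cell sum. Single markers went both ways: of 5 tested in each of the fibroblast and trophoblast lists, 3 had positive and 2 negative changes. Col3a1, for one, had 2.95 and 2.87 kb in treated cells, against 4.28 and 3.97 kb in untreated cells. The part of these lists in the results at the KLF loci was not tested.

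At one end of each of the 3 genes, neighbouring acetylated regions came close without touching. At Klf2, which lies on the plus strand at chr8:72319062-72321654, a region upstream of the start and a region over the gene were called in all 4 libraries, and 153 bp between them, chr8:72318856-72319008, lay in no peak of any library. At Klf4, on the minus strand at chr4:55527137-55532475, the corresponding stretch was 173 bp, chr4:55532495-55532667. At Klf5, at chr14:99298691-99313412, a stretch of 319 bp, chr14:99298398-99298716, held the lower-coordinate end of the gene. Promoter windows that touch 2 or more regions called in all 4 libraries were 628 of 21238 protein-coding windows (2.96%), against 8600 (40.5%) that touch at least 1. The 250 bases before the RefSeq starts of Klf2 and Klf4 (GRCm38.p6, which is mm10; the table had 2 of the 3 genes) are shown 5′ to 3′ on the strand of the gene because they span these stretches, whose bases are in capitals. The first, chr8:72318812-72319061, is on the plus strand, and the second, chr4:55532476-55532725, is on the minus strand.
Klf2: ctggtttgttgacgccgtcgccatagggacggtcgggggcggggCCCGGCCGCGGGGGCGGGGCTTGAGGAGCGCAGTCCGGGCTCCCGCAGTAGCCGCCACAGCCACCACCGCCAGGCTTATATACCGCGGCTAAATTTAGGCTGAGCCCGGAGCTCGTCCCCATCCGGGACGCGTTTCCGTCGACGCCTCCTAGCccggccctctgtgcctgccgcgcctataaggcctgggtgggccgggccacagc
Klf4: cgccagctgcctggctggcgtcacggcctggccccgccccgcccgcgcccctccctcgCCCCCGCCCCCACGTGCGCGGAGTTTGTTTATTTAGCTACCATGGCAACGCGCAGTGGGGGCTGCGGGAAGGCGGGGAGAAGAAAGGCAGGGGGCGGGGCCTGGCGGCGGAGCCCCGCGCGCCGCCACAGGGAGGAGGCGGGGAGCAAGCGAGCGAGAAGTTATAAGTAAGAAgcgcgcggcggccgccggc
The Klf2 sequence was 71.2% G or C and the Klf4 sequence 74.0%. The letters GGGCGG, a GC box that SP and KLF proteins bind, occurred 2 times at Klf2 and 4 times at Klf4 on either strand, with 1 and 2 of these in the capitals. Of 32851 RefSeq promoter windows of the same kind, 32.7% held the GC box, 16.7% held it at least 2 times and 4.09% at least 4 times. CACCC, a KLF box, occurred 1 time at Klf2 and 0 times at Klf4, and 52.0% of windows held it; no CACCC match overlapped a GC box. The letters CCGGAA (an ETS core, in 12.0% of windows), TGANTCA (AP-1, in 6.75%) and TTCCNGGAA (STAT, in 0.913%) were not found in either sequence on either strand.

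H3K27ac at the Klf5 locus covered more sequence after 4OHT, while the Klf2 and Klf4 loci had slightly less covered. The Klf5 window had 42.6 and 38.7 kb in peaks in treated clones a and b, against 30.6 and 30.3 kb in untreated clones a and b. Both treated libraries lay above both untreated ones, with a mean of 40.7 ± 2.78 kb against 30.5 ± 0.25 kb (SD, n = 2 clones each). The Klf2 window had 34.6 and 34.0 kb in treated cells, against 40.1 and 38.2 kb in untreated cells (34.3 ± 0.446 against 39.2 ± 1.31 kb, SD, n = 2). The Klf4 window had 21.6 and 23.3 kb in treated cells, against 25.0 and 25.8 kb in untreated cells (22.5 ± 1.18 against 25.4 ± 0.544 kb, SD, n = 2). At neither of these loci did the groups overlap, with the treated values lower. Across the 17993 loci tested, the groups also failed to overlap with treated higher at 35.3% and with treated lower at 23.0%, so separation of 2 against 2 libraries was common.

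**Figure D1:**
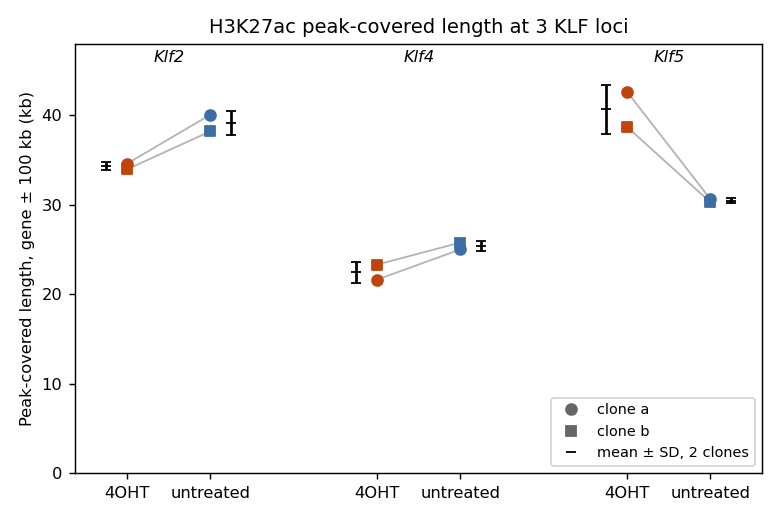
Peak-covered length (kb) of the gene plus 100 kb on each side at Klf2, Klf4 and Klf5, with 4OHT-treated libraries left of untreated ones. Circles are clone a, squares clone b, lines join the libraries of a clone, and bars give the mean ± SD of 2 clones. Only the Klf5 locus has its treated libraries above its untreated ones.

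None of the 3 loci passed the test with the 4 libraries taken as independent. On the scale of log2(covered bp + 500), limma gave 0.41 ± 0.10 (SE) for Klf5, a 1.33-fold greater covered length, with a Benjamini-Hochberg adjusted p of 0.0754. The same limma fit gave -0.19 ± 0.10 for Klf2 (adjusted p = 0.262) and -0.17 ± 0.10 for Klf4 (adjusted p = 0.323). It called 653 loci longer (3.63%) and 427 shorter (2.37%) in treated cells, and the median change of all loci was 0.06. With clone as a factor, which pairs the libraries of each clone, limma's adjusted p was 2.22e-05 for Klf5, 0.00434 for Klf2 and 0.0354 for Klf4. That fit called 26.3% of all loci longer and 19.7% shorter, so calls of this kind were frequent in both directions. Larger increases than that of Klf5 occurred at 16.2% of loci, and larger decreases than those of Klf2 and Klf4 at 25.1% and 26.4%.

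The direction was the same in both clones at each locus. The covered length at Klf5 changed by 12.0 kb in clone a and by 8.43 kb in clone b. At Klf2 it changed by -5.48 and -4.25 kb in clones a and b, and at Klf4 by -3.38 and -2.47 kb. The change at Klf5 exceeded that at Klf2 by 0.60 and that at Klf4 by 0.58 on the log2 scale, and both clones showed it. The exact permutation test over the 4 libraries, two-sided, gave p = 0.333 for each of these pairs, which is the smallest p that 2 libraries against 2 can give, and 0.5 after adjustment over the 3 pairs. The changes at Klf2 and Klf4 differed by -0.01 on that scale (exact permutation p = 0.667).

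As a share of its window, the Klf5 locus had the most sequence in peaks in treated cells, 18.9 ± 1.29%, ahead of Klf2 with 16.9 ± 0.22% and Klf4 with 10.9 ± 0.576% (SD, n = 2 clones each). In untreated cells the order was Klf2 with 19.3 ± 0.649%, Klf5 with 14.2 ± 0.117% and Klf4 with 12.4 ± 0.265%. Within each group, the values of neighbours in these orders did not overlap. The order of Klf2 and Klf5 thus differed between the groups.

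**Figure D2:**
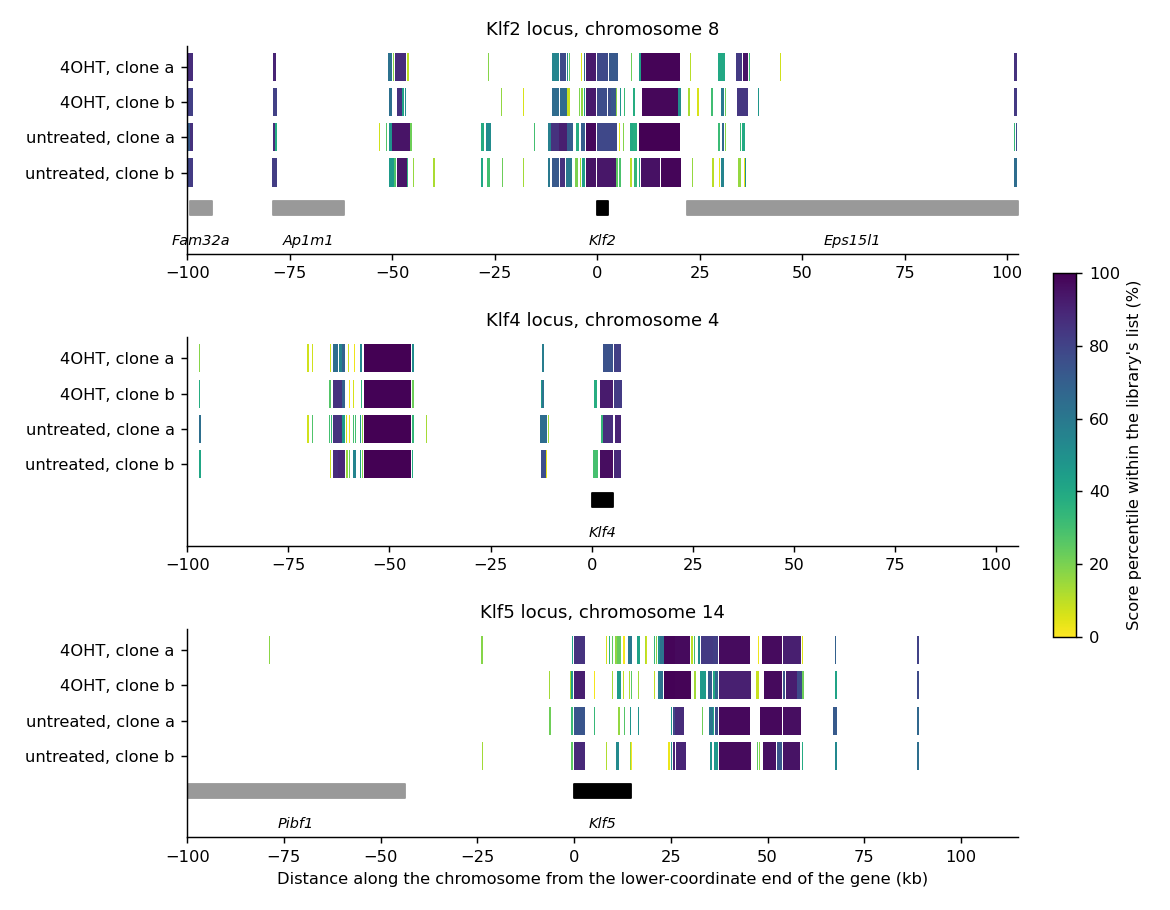
Peaks at the Klf2, Klf4 and Klf5 loci in each library, treated above untreated, against distance (kb) from the lower-coordinate end of the gene. Colour is the percentile of the authors' score within the library's own list, and boxes mark protein-coding genes. The blocks just beyond the higher-coordinate end of Klf5 are longer in treated cells, while the widest blocks of the 3 loci are alike in all libraries.

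Most of the additional acetylated length at Klf5 lay in the first 20 kb beyond its higher-coordinate end. That 20 kb flank had 13.4 and 10.9 kb in peaks in treated clones a and b, against 3.70 and 4.42 kb in untreated clones a and b, and the groups were far apart. It held 80.5% of the change of the whole window in clone a and 77.1% in clone b. The gene interval had 6.22 and 4.73 kb in treated cells, against 4.28 and 4.26 kb in untreated cells. The next flank, 20 to 50 kb away, held the most covered length in untreated cells, with 20.8 and 21.2 kb in treated cells against 20.6 and 19.8 kb in untreated cells; it held 1.72% of the change in clone a and 16.5% in clone b. The flank on the lower-coordinate side, which reaches into Pibf1, had under 1 kb in peaks in every zone and library.

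With the window narrowed to 20 kb on each side, the Klf5 locus passed the test. It had 20.1 and 16.6 kb in peaks in treated cells, against 8.66 and 9.02 kb in untreated cells (18.3 ± 2.47 against 8.84 ± 0.252 kb, SD, n = 2). The change was 1.01 ± 0.14 (SE) on the log2 scale, with a limma adjusted p of 0.0325, where 3.76% of the 13509 loci tested were called longer and 2.38% shorter. With lengths scaled to each library's total covered length and 100 kb flanks, the change was 0.43 with a limma adjusted p of 0.0490, and 3.98% of loci were called longer. At 50 kb on each side the change was 0.43 with an adjusted p of 0.0642 by limma. Leaving out single libraries was not run for the narrow windows. The 20 kb windows at Klf2 and Klf4 gave adjusted p-values of 0.198 and 0.435 by the same test.

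**Figure D3:**
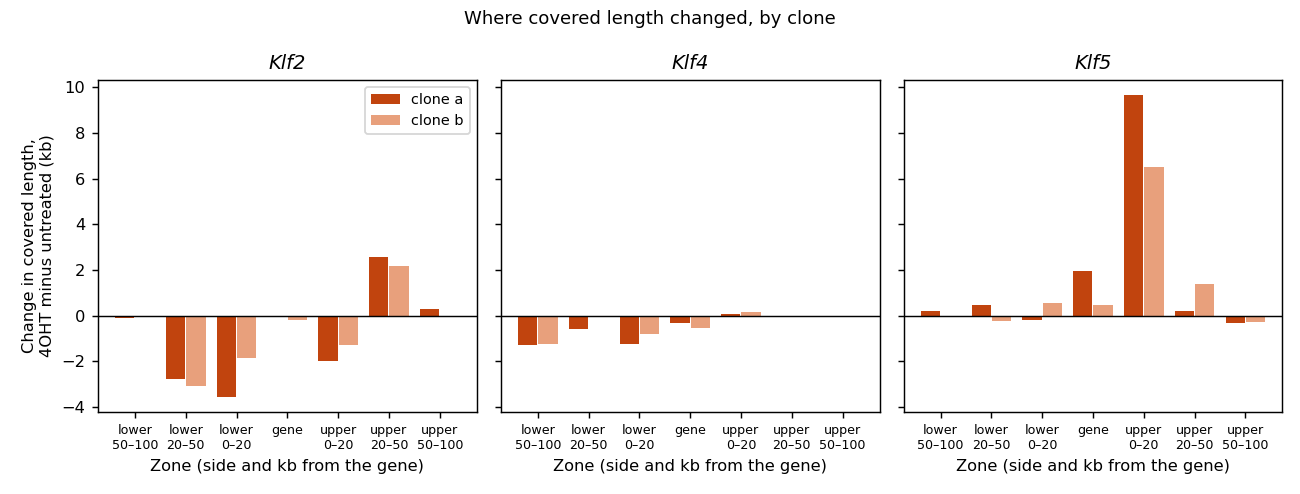
Change in peak-covered length, 4OHT minus untreated, in zones of the Klf2, Klf4 and Klf5 loci for clone a (dark) and clone b (light), in kb. Lower and upper are the lower- and higher-coordinate sides of the gene, with distances in kb. The largest bars, 9.66 and 6.51 kb, are those of the first 20 kb on the upper side of Klf5.

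At single regions, 5 of the 35 regions of the Klf5 locus (14.3%) were gained, that is called in clones a and b after 4OHT but in no untreated library, where 6.20% of all union regions were, and none showed the opposite pattern. The gained region inside Klf5, at chr14:99308366-99308816, had 443 and 336 bp in peaks in treated cells. The other gained regions lay 5.84, 7.04, 7.57 and 16.2 kb beyond the higher-coordinate end. The longest of them, at chr14:99320982-99321929, had 909 and 823 bp in treated cells and ranked at the 62.1 and 62.4 percentiles of the authors' score in its lists. The neighbour at chr14:99320448-99320881 had 392 and 391 bp and ranked at the 49.6 and 57.8 percentiles. The remaining regions, at chr14:99319249-99319619 and chr14:99329651-99330112, had 257 and 301 bp and 275 and 453 bp in treated clones a and b. The percentiles of these and of the region in the gene lay between 9.12 and 33.7, so they were among the weaker peaks of their lists.

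Among and just beyond the gained regions lay 3 regions called in all 4 libraries whose covered width was larger in both treated libraries. The region 8.61 kb beyond the end, chr14:99322021-99324824, covered 2745 and 2738 bp in treated cells, against 763 and 1342 bp in untreated cells, a log2 change of 1.44 ± 0.30 (SE; limma adjusted p = 0.141). The region 11.5 kb away, chr14:99324869-99328878, covered 3823 and 3977 bp in treated cells, against 2309 and 2839 bp in untreated cells, a change of 0.61 ± 0.13 (limma adjusted p = 0.149). The region 17.2 kb away, chr14:99330604-99334521, covered 3713 and 2821 bp in treated cells, against 1285 and 638 bp in untreated cells, a change of 1.84 ± 0.39 (limma adjusted p = 0.142). Treated and untreated libraries were apart at all 3, and none passed the adjusted threshold. Their ranks by score were also higher in treated cells: the first stood at the 98.5 and 99.3 percentiles in treated lists and at the 78.2 and 89.7 percentiles in untreated lists. The third stood at the 83.0 and 71.7 percentiles in treated lists and at the 61.1 and 48.3 percentiles in untreated lists. With peaks within 1000 bp merged, all 3 regions fell in 1 longer region, with a smaller log2 change of 0.65 (limma adjusted p = 0.0660).

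The strongest regions farther along the locus and the region at the lower-coordinate end of the gene were of nearly constant width. The region at that end of Klf5, chr14:99298717-99301582, covered 2786 and 2829 bp in treated cells and 2797 and 2864 bp in untreated cells. The widest region of the locus, 22.8 kb beyond the end at chr14:99336231-99344390, covered 7846 and 8158 bp in treated cells and 7798 and 8062 bp in untreated cells. The regions 33.4 and 39.3 kb away covered 5240 and 4795 bp and 4732 and 4614 bp in treated cells, and 5693 and 4689 bp and 4714 and 4516 bp in untreated cells. In all 4 of these regions the groups overlapped. Within the gene, the region chr14:99309257-99310797 covered 1313 and 888 bp in treated cells and 542 and 764 bp in untreated cells (log2 change 0.75, limma adjusted p = 0.353). The region across its higher-coordinate end, chr14:99312712-99313650, covered 939 and 421 bp in treated cells and 389 and 441 bp in untreated cells. The region 0.294 kb outside the lower-coordinate end covered 275 and 388 bp in treated cells and 306 and 344 bp in untreated cells. The region 52.3 kb beyond the higher-coordinate end, chr14:99365711-99366693, was narrower without overlap, with 449 and 474 bp in treated cells against 860 and 621 bp in untreated cells (log2 change -0.66, limma adjusted p = 0.332). The other regions in the gene or within 1 kb of it were called in 1 to 3 libraries and covered at most 389 bp in any.

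**Figure D4:**
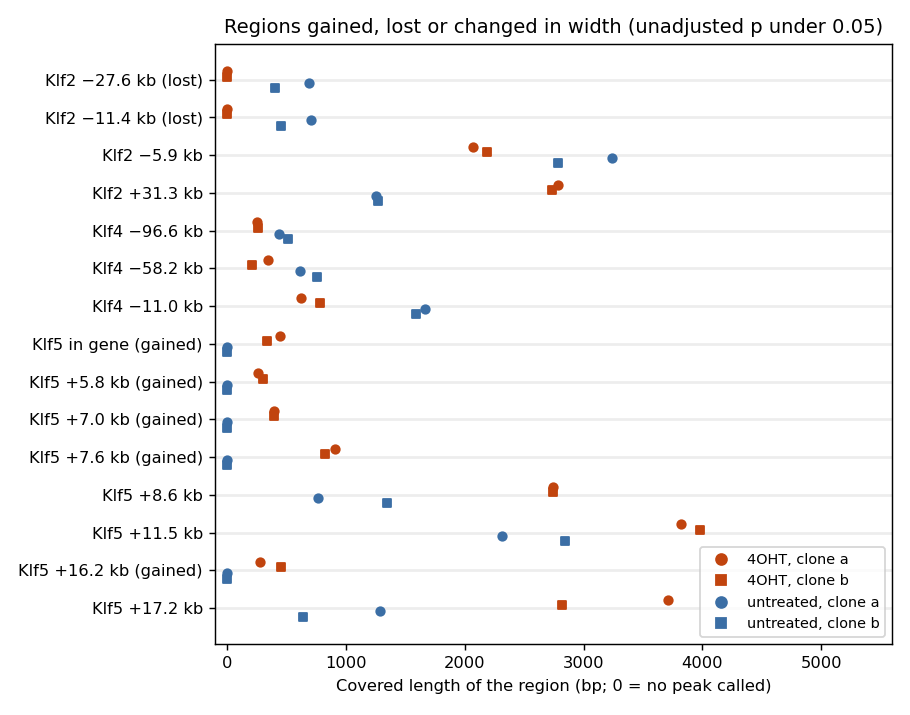
Covered length (bp) in each library of the regions that were gained or lost in both clones, or whose width changed with an unadjusted limma p under 0.05, at Klf2, Klf4 and Klf5. Signed distances are in kb from the gene, negative on the lower-coordinate side, and 0 bp means no peak called. The Klf4 regions and all but 1 of the Klf2 regions shown are narrower or not called in treated cells, and all Klf5 regions shown are wider or newly called.

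At Klf2, the flank with less acetylation after 4OHT was mainly the upstream one. The first 20 kb upstream had 6.93 and 7.73 kb in peaks in treated clones a and b, against 10.5 and 9.61 kb in untreated clones a and b. From 20 to 50 kb upstream there were 3.84 and 2.48 kb in treated cells, against 6.61 and 5.54 kb in untreated cells. The first 20 kb downstream had 12.2 and 12.7 kb in treated cells and 14.2 and 14.0 kb in untreated cells. In all 3 zones both treated values lay below both untreated ones. The gene itself, which is short, was covered nearly end to end, with 2.59 and 2.42 kb in treated cells and 2.59 and 2.59 kb in untreated cells.

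The regions lost at Klf2 were small. Of its 38 regions, 2 (5.26%) were lost, that is called in both untreated clones but in no treated library, where 6.26% of all union regions were, a share close to the background. They lay 27.6 kb upstream at chr8:72290744-72291431, with 688 and 404 bp in untreated cells, and 11.4 kb upstream at chr8:72306980-72307684, with 705 and 454 bp in untreated cells. The region 5.92 kb upstream, chr8:72309794-72313144, covered 2070 and 2186 bp in treated cells, against 3241 and 2786 bp in untreated cells, a log2 change of -0.50 ± 0.12 (SE; limma adjusted p = 0.174). That region and the one 45.7 kb upstream, described below, had the largest mean decreases of the locus, -885.5 and -964.5 bp. At the one 45.7 kb upstream the groups overlapped. The region just upstream of the start, chr8:72316307-72318855, covered 2502 and 2469 bp in treated cells and 2532 and 2531 bp in untreated cells. The region over the gene, chr8:72319009-72324191, covered 4757 and 4316 bp in treated cells and 4786 and 5072 bp in untreated cells.

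Against this direction, a region 31.3 kb downstream of Klf2 was wider after 4OHT. It lies inside Eps15l1, at chr8:72353003-72355906, and covered 2784 and 2730 bp in treated cells, against 1249 and 1269 bp in untreated cells. The change was 1.13 ± 0.11 (SE) on the log2 scale, 2.19-fold, with a limma adjusted p of 0.0777, which is above the threshold. Its rank by score was the 94.8 and 84.1 percentile in treated lists and the 39.7 and 48.3 percentile in untreated lists. Eps15l1, which encodes an endocytic adaptor, had 6.11 and 5.99 kb in peaks within the Klf2 window in treated cells, against 3.24 and 3.56 kb in untreated cells. Of the 38 regions of the window, 22 lie nearest to a protein-coding gene other than Klf2, the neighbours being Fam32a, Ap1m1 and Eps15l1.

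The widest region of the Klf2 locus differed little. It lies 7.58 kb downstream of Klf2 at chr8:72329233-72339476, and the protein-coding gene nearest to it is Eps15l1. The region covered 9812 and 9434 bp in treated cells and 9958 and 9968 bp in untreated cells. Its percentile by score was 99.1 and 98.3 in treated lists and 99.9 and 98.5 in untreated lists. Only 123 of the 82792 union regions were wider. The region 45.7 kb upstream, chr8:72268015-72273314, also ranked high by score and lies nearest to Ap1m1. It covered 4520 and 2780 bp in treated cells and 4879 and 4350 bp in untreated cells.

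At Klf4, acetylation was concentrated in a single wide region far downstream of the gene. The region, 44.6 kb from the gene at chr4:55470777-55482489, covered 11496 and 11577 bp in treated cells and 11533 and 11643 bp in untreated cells, a log2 change of -0.01 ± 0.04 (SE). Only 82 union regions were wider, and its score ranked at the 99.7 and 99.5 percentiles in treated lists and at the 99.99 and 99.98 percentiles in untreated lists. No other protein-coding gene overlaps the Klf4 window. Upstream lie the lncRNA genes Gm12506, Gm34343 and Gm12511, and beyond the first 20 kb on that side no peak was called in any library.

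The differences at Klf4 were mainly in smaller downstream regions. The zone 50 to 100 kb downstream had 11.1 and 10.9 kb in peaks in treated cells, against 12.3 and 12.2 kb in untreated cells. It held 37.9% of the change of the whole window in clone a and 49.5% in clone b. The gene interval held 9.86% and 21.8%. The first 20 kb downstream had 0.623 and 0.779 kb in peaks in treated clones a and b, against 1.86 and 1.59 kb in untreated clones a and b. Most of this was the region 11.0 kb downstream, chr4:55514441-55516136, which covered 623 and 779 bp in treated cells, against 1664 and 1587 bp in untreated cells, a log2 change of -1.22 ± 0.20 (SE; limma adjusted p = 0.105). The region 58.2 kb downstream, chr4:55468155-55468914, covered 341 and 206 bp in treated cells, against 614 and 756 bp in untreated cells (-1.36 ± 0.34, limma adjusted p = 0.177). Its peaks were weak in treated lists, at the 2.62 and 6.15 percentiles by score. With peaks within 1000 bp merged, it fell in a longer region with a log2 change of only -0.10 (limma adjusted p = 0.593). The region 96.6 kb downstream, chr4:55429988-55430496, covered 254 and 258 bp in treated cells, against 432 and 509 bp in untreated cells (-0.87 ± 0.22, limma adjusted p = 0.179). None of these 3 passed the adjusted threshold, although treated and untreated libraries did not overlap. The region over the start of Klf4, chr4:55529060-55532494, covered 2495 and 3235 bp in treated cells and 2809 and 3412 bp in untreated cells. The region upstream of the start, chr4:55532668-55534571, covered 1727 and 1882 bp in treated cells and 1681 and 1725 bp in untreated cells. A region in the gene body, chr4:55527441-55528648, was called in clone b only, with 845 bp in treated and 1208 bp in untreated cells. No region of the Klf4 locus was gained or lost in both clones.

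Regions called in all 4 libraries made up 14 of 35 at Klf5 (40.0%), 13 of 38 at Klf2 (34.2%) and 11 of 16 at Klf4 (68.8%), where 36.4% of all union regions were. Of those at Klf5, 4 of 14 were wider in both treated libraries than in either untreated one and 1 was narrower. At Klf2 the counts were 2 wider and 7 narrower of 13, and at Klf4 1 wider and 4 narrower of 11. In the genome 27.3% of the 30131 such regions were wider without overlap and 21.5% narrower. Unadjusted p-values under 0.05 by limma went to 3 wider regions at Klf5, 1 wider and 1 narrower at Klf2 and 3 narrower at Klf4, against 8.36% wider and 8.46% narrower in the genome. The 3 wider regions at Klf5 fell in 1 region once peaks within 1000 bp were merged. No region passed the adjusted threshold in either direction, at these loci or elsewhere. With clone as a factor, limma called 101 regions wider (0.335%) and 154 narrower (0.511%), and the lowest adjusted p at these loci was 0.0517, for the region inside Eps15l1.

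Of the other 14 KLF family genes, the limma test called 1 locus shorter and 0 longer, where it called 2.37% and 3.63% of all loci. At an unadjusted p under 0.05, 1 (Klf6) was longer and 1 (Klf15) shorter, where 16.9% and 11.8% of all loci were. With clone as a factor 4 were called longer and 1 shorter, where 26.3% and 19.7% of all loci were. Klf15 had 9.92 and 11.2 kb in peaks in treated cells, against 18.6 and 19.2 kb in untreated cells, a log2 change of -0.81 ± 0.12 (SE; limma adjusted p = 0.0334). Its adjusted p by limma was 0.137 without the untreated clone a library, 0.114 without the untreated clone b library and 0.0579 without the treated clone a library. It was 0.110 with the 20000 peaks of highest score in each list and 0.0811 with the upper 50% of peaks by score. Klf6 had 18.8 and 18.5 kb in treated cells, against 14.7 and 12.7 kb in untreated cells, and did not pass (log2 change 0.43, limma adjusted p = 0.0897). Klf10 (0.41), Klf12 (0.36) and Klf7 (-0.33) had the next largest log2 changes, with limma adjusted p-values of 0.286, 0.263 and 0.472. With 1 library left out, they ranged from 0.18 to 0.65 for Klf10, from 0.18 to 0.55 for Klf12 and from -0.57 to -0.08 for Klf7. The median of the 14 loci was -0.03, against 0.06 over all loci tested.

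Of 22 genes of the naive pluripotency network, 0 loci passed the limma test in either direction, and the median change was -0.03. At an unadjusted p under 0.05, 2 were longer and 4 shorter, where 16.9% and 11.8% of all loci were. The limma fit with clone as a factor called 6 of them longer and 8 shorter, where it called 26.3% and 19.7% of all loci. Stat3, the transcription factor downstream of LIF, had 12.9 and 14.9 kb in treated cells, against 5.72 and 8.39 kb in untreated cells (log2 change 0.95, limma adjusted p = 0.0591). Socs3, which encodes a feedback inhibitor of that pathway, had 26.7 and 21.4 kb in treated cells, against 39.7 and 36.9 kb in untreated cells (-0.67, limma adjusted p = 0.0559). Prdm14, a transcriptional regulator of pluripotency, had 18.9 and 15.0 kb in treated cells, against 32.1 and 25.6 kb in untreated cells (-0.75, limma adjusted p = 0.0652). Gbx2 had 6.49 and 6.70 kb in treated cells, against 2.56 and 5.64 kb in untreated cells (0.71, limma adjusted p = 0.236). Its change was 0.21 without the untreated clone a library and 1.21 without the untreated clone b library. Leaving out 1 library gave changes from 0.69 to 1.21 for Stat3, from -0.82 to -0.51 for Socs3 and from -0.91 to -0.59 for Prdm14.

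**Figure D5:**
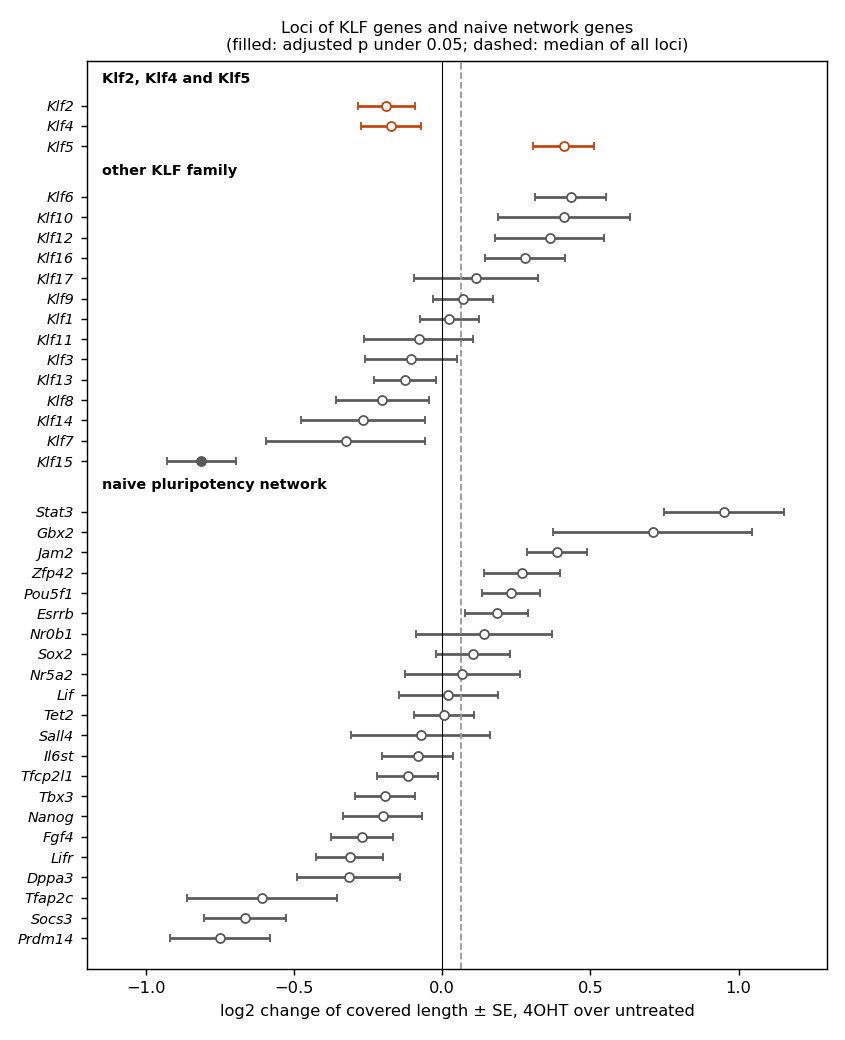
Change in covered length at the loci of Klf2, Klf4 and Klf5, the other KLF genes and naive network genes, as log2 of 4OHT over untreated with limma standard errors. The solid line marks 0, the dashed line the median of all loci (0.06), and a filled symbol an adjusted p under 0.05. Klf15 alone is filled.

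The loci whose values over the 4 libraries were most like those of a member, by Euclidean distance between centred log2 lengths, were Dop1b (distance 0.00827) and H1f4 (0.00995) for Klf2. For Klf4, Scn3b (0.0121) is named, and for Klf5 they were Adrb1 (0.0165) and Efna2 (0.0167). Loci within a distance of 0.05 numbered 74 for Klf2, 32 for Klf4 and 24 for Klf5.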

How the data were processed

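The submitters' processing notes name Bowtie2, bedtools, MACS2 and the mm10 build. For versions, thresholds and any use of inputs, the sources used here give nothing. Every deposited file is the peak list of 1 library and carries the authors' score, whose scale is not stated; it served only to rank or filter peaks within a list. Clones carry the same letters in both groups, which pairs the libraries: over 17993 loci the deviations of the 2 libraries of a clone from their group means correlated with r = 0.636.

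For each RefSeq protein-coding gene, the length covered by peaks within 100 kb was taken, and log2(bp + 500) was tested with limma 3.58.1 (R 4.3.3; trended variance, treatment only) over loci with a mean of at least 1000 bp, with Benjamini-Hochberg adjustment and a threshold of 0.05. Peaks overlapping by 1 bp were merged into union regions with Python 3.11.15, pandas 2.3.3 and numpy 2.4.6, and the widths of regions called in all 4 libraries were tested likewise. Pairs of loci were compared with scipy 1.17.1. The treatment-only fits were checked on simulated data with larger changes than those at the member loci and with no clone effect. Changes as small as those at these loci, and the fit with clone as a factor, were not checked. The gene table gives no exons, so regions are placed only inside or outside genes; its intervals carry no strand for Klf5. Alternatives were other windows, pseudocounts, filters, scalings and clone as a factor, and leaving out each library.

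The members and gene lists were chosen with earlier results of these data known. Named in each list were genes that passed the test and up to 4 others with the largest changes, and at each locus the regions gained, lost, at the gene, highest in score or past the width test; regions with an unadjusted p under 0.05 were added after their values were seen. Of the 2 loci most like each member, 1 for Klf4 is not reported here.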

Additional observations from a re-analysis of the deposited data

How the results depend on the processing

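The log2 changes kept their direction in all 13 alternatives at each locus: -0.26 to -0.05 at Klf2 (limma adjusted p 0.00434 to 0.832), -0.29 to -0.06 at Klf4 (0.0354 to 0.787) and 0.31 to 1.01 at Klf5 (2.22e-05 to 0.321). The weakest changes at Klf2 and Klf4, -0.05 and -0.06, came with the upper 50% of peaks by score (limma adjusted p 0.832 and 0.787). In the paired fit with clone as the replicate block, the changes -0.19, -0.17 and 0.41 passed the threshold. Klf5 also passed by limma when lengths were scaled to each library's total (0.43, adjusted p = 0.0490) and with 20 kb flanks (1.01). Leaving out 1 library gave -0.22 to -0.15 at Klf2, -0.23 to -0.12 at Klf4 and 0.34 to 0.48 at Klf5, where the lone library of a group is assumed to vary like the others.

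Loci called longer were 653, but 4735 with the replicate block, 296 with the upper 50% of peaks by score, 1 with the top 20000 peaks and 0 to 435 with a library left out; loci called shorter were 427, 3541, 209, 0 and 0 to 513. Regions gained in the genome were 5130, but 2569 with peaks within 1000 bp merged, 2581 with the upper 50%, 1859 with the top 20000 and 7101 to 13200 with a library left out; regions lost were 5185, 2508, 2517, 1641 and 7171 to 12515. At Klf5, 5 gained regions became 0 when merged, 8 when a peak had to cover 50% of the region, 1 with the upper 50%, 2 with the top 20000 and 6 to 11 with a library left out; its 0 lost regions became 1 under the cover rule and 0 to 1 with a library left out. At Klf2, 0 gained became 1, 2 and 1 under the cover rule, upper 50% and top 20000, and 0 to 3 with a library left out; 2 lost became 0 when merged, 5, 1 and 1 under those rules, and 4 to 6. At Klf4, 0 lost became 2 under the cover rule and 0 to 2 with a library left out. Width calls, 0 in each direction, were 101 wider and 154 narrower with the replicate block. Klf7 reversed to 0.38 with the top 20000 peaks and 0.14 with the upper 50%. The cause of these moves was not tested. With depth unknown, gained or lost cannot be told apart from a shift across a peak caller's threshold.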
